A study of Mus musculus with 4 samples.

Results

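The genes described here encode cytokines of the interleukin-6 (IL-6) family, their receptors, an inhibitor of their signal, and cytokines of other families that fibroblasts use to speak to leukocytes. They are *Il6*, *Il11*, *Lif* and *Clcf1* (ligands), *Il6st* and *Il11ra1* (receptors), *Socs3* (inhibitor), *Csf1* (macrophage growth factor), *Il33* (alarmin) and *Il1rl1* (receptor of IL-33). They were chosen by name, with earlier results of these data known. Each was read from the transcript with the longest gene body at its position on the same strand of mouse genome build mm10. All 10 were found among 25909 named genes. All 10 also had a mean over the 4 libraries of at least 0.1 RPKM (reads scaled to the length of the transcript and to the mapped reads of the library), as did 13931 genes in all, and 7 of them had a mean of at least 1 RPKM.

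Transcription was measured by stranded total RNA sequencing in mouse embryonic fibroblasts (MEF) of strain C57BL/6, immortalized with simian virus 40. The cells came from embryos at embryonic day 15.5, from the body that remained after the head, limbs, tail and inner organs had been taken away. They were *Hmga2*+/+ (wild type) or *Hmga2*-/- (knockout), the genotype field of the latter being written Hmga-/- in the labels. *Hmga2* encodes an architectural chromatin protein, and the study asked what its loss does to transcription before and after stimulation with transforming growth factor beta 1 (TGFB1). All cells were starved overnight in medium with 1% fetal calf serum and then received water (Ctrl) or human recombinant TGFB1 at 10 ng/ml, and RNA was taken after 24 h. There was 1 library per condition, so the spread between cultures is unknown, no test between conditions was possible, and a difference between the genotypes cannot be told apart from a difference between these cell lines. Whether each line goes back to 1 embryo or to several is not given in the sources used here. Likewise, in RNA from whole cultures fewer cells that express a gene and less RNA per cell cannot be told apart.

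IL-6 family cytokines bind a receptor of their own and share the signal-transducing chain gp130, the product of *Il6st*. Gp130 recruits JAK kinases, which phosphorylate STAT3, and STAT3 in turn activates *Socs3*, whose product shuts the receptor off. In fibroblasts, IL-11 and LIF are known as products of TGFB1 signalling, IL-11 acting back on the same cells through *Il11ra1*. IL-33 is a nuclear cytokine set free by damaged cells, and its receptor ST2, the product of *Il1rl1*, is made as a membrane-bound long form and as a secreted short form that captures IL-33.

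The libraries held between 56140000 and 57290000 mapped reads, as derived from the RPKM steps, and 3 reads on a transcript of 1 kilobase corresponded to between 0.0524 and 0.0534 RPKM. *Hmga2* was at 14.8 RPKM in *Hmga2*+/+ Ctrl and 40.7 RPKM in *Hmga2*+/+ TGFB1, with 0 reads in both *Hmga2*-/- libraries, where up to 3 reads each remain possible. *Ccn2*, a classical TGFB1 target, went from 13.2 to 172.7 RPKM in *Hmga2*+/+ MEF and from 24.9 to 358.9 RPKM in *Hmga2*-/- MEF. All 9 fibroblast markers examined were above the limit of 0.1 RPKM, with a summed level between 1875 and 2264 RPKM. Most of that sum was *Vim* (between 957.7 and 1497 RPKM). On TGFB1, 1 of the 9 rose and 4 fell by at least 1.5-fold in *Hmga2*+/+ MEF, against 12.9% and 22.4% of all genes. In *Hmga2*-/- MEF 2 rose and 4 fell, against 14.4% and 20.7%. Of 9 leukocyte markers only *Cd68* was above it (between 1.25 and 1.63 RPKM), and *Ptprc*, which defines leukocytes, was between 0 and 0.007 RPKM. The epithelial and endothelial lists differed with genotype, and some of their genes changed on TGFB1. Both are given beside the genotype comparison.

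An interval given with a log2 change is the exact 95% interval from the read numbers behind both values. It covers counting error only. A gene is said to rise or fall, or to be higher or lower, where its RPKM differed by at least 1.5-fold (0.58 on the log2 scale), the threshold of the study's methods.

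In *Hmga2*+/+ Ctrl the receptors and *Csf1* led the order of levels. *Il6st* was at 70.5 RPKM, *Il11ra1* at 27.5 RPKM, *Csf1* at 22.1 RPKM and *Il1rl1* at 18.9 RPKM, above between 84.7% and 97.8% of the 13931 genes in that library. *Socs3* followed at 5.09 RPKM and *Clcf1* at 2.20 RPKM. *Lif* (0.320 RPKM) and *Il11* (0.301 RPKM) came next, then *Il33* (0.127 RPKM) and *Il6* (0.105 RPKM), and within each of these 2 pairs the counting intervals overlapped. After TGFB1, *Il1rl1* stood above *Il6st* in both genotypes, and above 99.2% and 99.3% of all genes in the *Hmga2*+/+ and *Hmga2*-/- library. *Csf1* and *Il11ra1* did not differ beyond counting error in *Hmga2*-/- Ctrl, nor did *Lif* and *Clcf1* in *Hmga2*+/+ TGFB1 or *Lif* and *Socs3* in *Hmga2*-/- TGFB1.

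**Figure D1:**
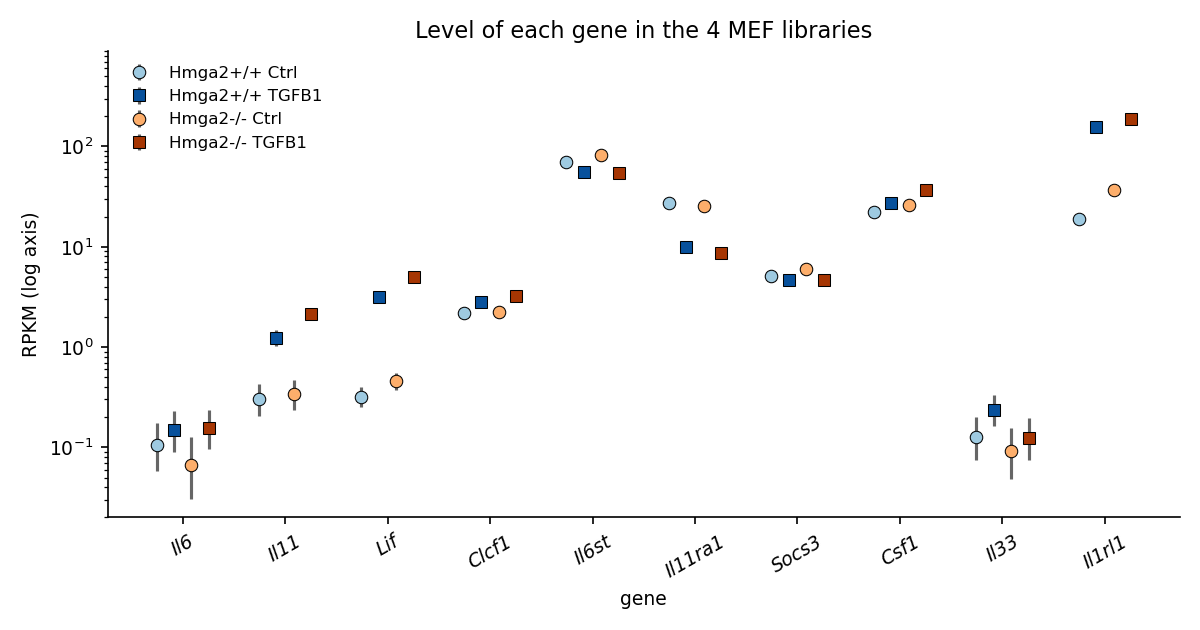
Level of the 10 genes in each of the 4 MEF libraries, in RPKM on a log axis. Points are single libraries and lines their 95% counting intervals (Poisson). *Il11*, *Lif* and *Il1rl1* sat higher in both TGFB1 libraries than in both Ctrl libraries and *Il11ra1* lower, while *Il6* and *Il33* stayed under 0.24 RPKM everywhere.

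On TGFB1, 4 of the 10 genes rose in *Hmga2*+/+ MEF (*Il11*, *Lif*, *Il33*, *Il1rl1*), against 12.9% of all genes, and 1 fell (*Il11ra1*), against 22.4%. In *Hmga2*-/- MEF 4 rose (*Il6*, *Il11*, *Lif*, *Il1rl1*), against 14.4%, and 2 fell (*Il6st*, *Il11ra1*), against 20.7%. The median log2 change of the 10 genes was 0.43 in *Hmga2*+/+ MEF and 0.52 in *Hmga2*-/- MEF, beside -0.08 and -0.03 over all genes. *Il11*, *Lif*, *Il1rl1* and *Il11ra1* thus passed the threshold in the same direction in both genotypes. As the 10 genes were chosen with earlier results of these data known, the contrast with all genes is a description only.

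**Figure D2:**
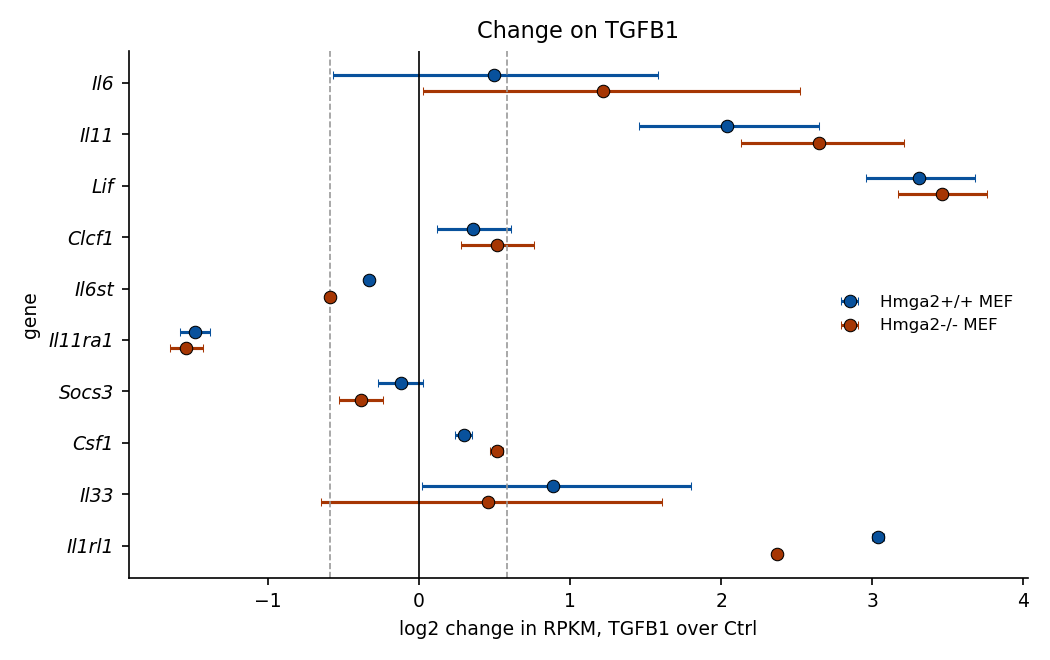
Log2 change in RPKM from Ctrl to TGFB1 for each of the 10 genes in *Hmga2*+/+ (blue) and *Hmga2*-/- (brown) MEF. Lines are 95% counting intervals and dashed lines mark 1.5-fold. *Lif*, *Il1rl1* and *Il11* lay far to the right in both genotypes (between 2.04 and 3.46), *Il11ra1* lay at -1.48 and -1.54, and the wide lines of *Il6* and *Il33* reflect between 9 and 34 reads per library.

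Among the ligands, *Lif*, a cytokine that signals through gp130 and the LIF receptor, changed most. It was at 0.320 RPKM (72 reads) in *Hmga2*+/+ Ctrl, 3.17 RPKM (728 reads) in *Hmga2*+/+ TGFB1, 0.458 RPKM (104 reads) in *Hmga2*-/- Ctrl and 5.04 RPKM (1151 reads) in *Hmga2*-/- TGFB1. Both TGFB1 libraries lay above both Ctrl libraries. The log2 change was 3.31 (2.96 to 3.68) in *Hmga2*+/+ MEF and 3.46 (3.17 to 3.76) in *Hmga2*-/- MEF. Of 10788 genes with a mean of at least 1 RPKM, 30 rose more than *Lif* in *Hmga2*+/+ MEF and 31 in *Hmga2*-/- MEF.

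*Il11*, which encodes the gp130 cytokine IL-11, was at 0.301, 1.24, 0.337 and 2.11 RPKM in *Hmga2*+/+ Ctrl, *Hmga2*+/+ TGFB1, *Hmga2*-/- Ctrl and *Hmga2*-/- TGFB1, from 31, 130, 35 and 221 reads. The Ctrl libraries were close to each other and both TGFB1 libraries lay above them. *Il11* rose 4.11-fold in *Hmga2*+/+ MEF (log2 change 2.04, 1.46 to 2.65) and 6.27-fold in *Hmga2*-/- MEF (log2 change 2.65, 2.13 to 3.21).

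The annotation gives both genes a second start. For *Il11* the transcript with the proximal first exon was at 0.285, 1.44, 0.319 and 2.26 RPKM in *Hmga2*+/+ Ctrl, *Hmga2*+/+ TGFB1, *Hmga2*-/- Ctrl and *Hmga2*-/- TGFB1. It held 30 reads more than the transcript with the distal first exon in *Hmga2*+/+ TGFB1 and 28 reads more in *Hmga2*-/- TGFB1, with a difference of 0 reads in both Ctrl libraries. As the 2 transcripts share their other exons in this annotation, at least that many reads lay on the proximal first exon after TGFB1. For *Lif* the transcript with the internal first exon held 12, 30, 22 and 32 reads more than the one that starts at the distal site, in the same order of libraries, so the net difference was positive in all 4.

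The sequences shown for *Il11* and *Lif*, genes that rose on TGFB1 in both genotypes, are those that held the AP-1 letters. The window of the distal *Il11* start, where the transcript used for the *Il11* values begins, held none of the motifs searched. The sequence of *Il1rl1* is shown because this gene rose likewise without any of these motifs. That of *Socs3* is shown because it alone held the STAT letters. The 250 bases before each start were taken from RefSeq (GRCm38.p6, the assembly of mm10) and run from 5′ to 3′ on the strand of the gene, the last base lying next to the start. Capitals mark TGANTCA, the letters bound by AP-1, or in *Socs3* TTCNNNGAA, the letters bound by STAT factors. They belong to *Il11* before its proximal start (chr7:4778142-4778391, minus strand), *Lif* before its distal start (chr11:4257318-4257567, plus strand), *Socs3* (chr11:117969367-117969616, minus strand) and *Il1rl1* before its proximal start (chr1:40439379-40439628, plus strand).
*Il11*: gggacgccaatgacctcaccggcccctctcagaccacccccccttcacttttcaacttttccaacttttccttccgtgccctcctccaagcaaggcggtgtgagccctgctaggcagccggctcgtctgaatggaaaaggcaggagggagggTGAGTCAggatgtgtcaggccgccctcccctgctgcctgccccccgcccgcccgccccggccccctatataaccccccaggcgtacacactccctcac
*Lif*: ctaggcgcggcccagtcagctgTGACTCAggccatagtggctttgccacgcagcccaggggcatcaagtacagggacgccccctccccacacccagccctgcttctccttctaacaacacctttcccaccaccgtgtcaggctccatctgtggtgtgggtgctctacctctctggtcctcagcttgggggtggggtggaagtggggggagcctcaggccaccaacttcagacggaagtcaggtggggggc
*Socs3*: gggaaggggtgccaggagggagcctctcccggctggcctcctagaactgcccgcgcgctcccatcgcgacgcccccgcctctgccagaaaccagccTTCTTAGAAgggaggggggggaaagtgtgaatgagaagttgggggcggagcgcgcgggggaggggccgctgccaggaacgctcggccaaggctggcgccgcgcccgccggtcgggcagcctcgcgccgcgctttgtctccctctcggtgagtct
*Il1rl1*: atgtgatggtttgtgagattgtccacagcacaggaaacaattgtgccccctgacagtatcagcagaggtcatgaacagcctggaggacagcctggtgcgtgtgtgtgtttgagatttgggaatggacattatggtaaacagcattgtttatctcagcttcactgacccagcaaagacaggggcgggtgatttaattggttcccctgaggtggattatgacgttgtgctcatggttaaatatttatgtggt

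Both strands of the 300 bases around each start (250 before and 50 after) were searched. The 13 windows searched belong to 9 of the 10 genes. TGANTCA was found in 3 of them, those of *Il6*, the proximal start of *Il11* and the distal start of *Lif*, and in 7.81% of 32851 windows in the table. Its first base lay 98 bases before the proximal start of *Il11*, 228 bases before the distal start of *Lif* and 249 bases before the start of *Il6*. TTCNNNGAA was found in 1 window, that of *Socs3*, 154 bases before the start, and in 8.30% of all windows. CAGACA, the letters bound by SMAD factors, was found in 1 window, that of *Il6*, and in 21.0% of all windows. No window of *Clcf1* or of the internal start of *Lif* was in the table, so these were not searched. A match is a run of letters and says nothing of binding in these cells.

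*Clcf1* encodes a ligand of the CNTF receptor. It was at 2.20 RPKM in *Hmga2*+/+ Ctrl, 2.82 RPKM in *Hmga2*+/+ TGFB1, 2.25 RPKM in *Hmga2*-/- Ctrl and 3.23 RPKM in *Hmga2*-/- TGFB1, with log2 changes of 0.36 (0.12 to 0.61) and 0.52 (0.28 to 0.76), both under the threshold. *Clcf1* overlaps *AC109138.7* on the same strand, and reads on shared bases cannot be told apart.

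*Il6* itself was close to the lower limit of these libraries. Its transcript of longest gene body keeps the last intron, and it was at 0.105, 0.148, 0.067 and 0.156 RPKM in *Hmga2*+/+ Ctrl, *Hmga2*+/+ TGFB1, *Hmga2*-/- Ctrl and *Hmga2*-/- TGFB1, from 14, 20, 9 and 21 reads. The log2 change was 0.50 (-0.57 to 1.58) in *Hmga2*+/+ MEF and 1.22 (0.03 to 2.52) in *Hmga2*-/- MEF. A fully spliced transcript held 7, 14, 5 and 16 reads in the same order. Between the genotypes in Ctrl, the log2 difference was -0.65 (-2.04 to 0.66) and turned to 0.40 when the transcript with the highest mean stood for the gene, so *Il6* gave no direction there at this depth.

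Of the IL-6 family ligands, 6 of the 11 genes reported here had a mean of at least 0.1 RPKM. On TGFB1, 2 of the 6 rose in *Hmga2*+/+ MEF (*Il11* and *Lif*) and 0 fell, with a median log2 change of 0.43, against 12.9% and 22.4% of all genes. In *Hmga2*-/- MEF 3 rose (*Il6*, *Il11* and *Lif*) and 1 fell, with a median of 0.87, against 14.4% and 20.7%. The gene that fell was *Ctf1*, which encodes cardiotrophin 1, at 1.82 RPKM in Ctrl and 0.995 RPKM after TGFB1. *Cntf*, which encodes ciliary neurotrophic factor, had log2 changes of -0.27 in *Hmga2*+/+ MEF and -0.10 in *Hmga2*-/- MEF. *Osm*, *Il27* and *Il31* had 0 reads in all 4 libraries.

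Among the receptors, *Il11ra1* fell in both genotypes. *Il11ra1*, the chain that binds IL-11, was at 27.5 RPKM in *Hmga2*+/+ Ctrl, 9.86 RPKM in *Hmga2*+/+ TGFB1, 25.3 RPKM in *Hmga2*-/- Ctrl and 8.71 RPKM in *Hmga2*-/- TGFB1. Both TGFB1 libraries lay below both Ctrl libraries, by 2.79-fold in *Hmga2*+/+ MEF (log2 change -1.48, -1.58 to -1.38) and 2.90-fold in *Hmga2*-/- MEF (log2 change -1.54, -1.65 to -1.43). Of the 10788 genes, 249 fell more in *Hmga2*+/+ MEF and 253 in *Hmga2*-/- MEF. All 4 annotated transcripts of *Il11ra1* fell, between 24.0 and 28.9 RPKM in Ctrl and between 8.41 and 10.3 RPKM after TGFB1. The value is uncertain to the extent that *Il11ra1* has a near-identical copy, *Il11ra2*, which held 0 reads in 3 libraries and 1 read in *Hmga2*-/- Ctrl, and overlaps *Galt* on the same strand.

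The ratio of *Il11* to *Il11ra1*, ligand over receptor in RPKM, was 0.0109 in *Hmga2*+/+ Ctrl, 0.125 in *Hmga2*+/+ TGFB1, 0.0133 in *Hmga2*-/- Ctrl and 0.243 in *Hmga2*-/- TGFB1. It was thus higher in both TGFB1 libraries, with the ligand below the receptor in every library.

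*Il6st*, the gp130 chain shared by the family, was the most abundant of the IL-6 family genes examined here. It was at 70.5, 56.2, 82.1 and 54.6 RPKM in *Hmga2*+/+ Ctrl, *Hmga2*+/+ TGFB1, *Hmga2*-/- Ctrl and *Hmga2*-/- TGFB1. Both TGFB1 libraries were below both Ctrl libraries. The log2 change was -0.33 (-0.36 to -0.30) in *Hmga2*+/+ MEF and -0.59 (-0.62 to -0.56) in *Hmga2*-/- MEF, the latter barely past the threshold at 1.503-fold. A short annotated transcript of *Il6st* that ends early was at 16.0, 12.1, 18.4 and 11.4 RPKM in the same order.

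The other receptors of the family each had a pattern of their own. *Il6ra*, the IL-6 binding chain, was at 2.01 and 3.51 RPKM in *Hmga2*+/+ Ctrl and TGFB1 (log2 change 0.81) and at 2.33 and 2.67 RPKM in *Hmga2*-/- Ctrl and TGFB1 (0.20). *Lifr*, which pairs with gp130 to bind LIF, was at 5.28 and 3.85 RPKM in *Hmga2*+/+ MEF (log2 change -0.46) and at 6.55 and 3.50 RPKM in *Hmga2*-/- MEF (-0.90). *Osmr*, the oncostatin M receptor, was at 21.7 and 30.3 RPKM in *Hmga2*+/+ MEF (0.48) and at 28.7 and 32.7 RPKM in *Hmga2*-/- MEF (0.19). *Cntfr*, the receptor chain for CNTF, did not exceed 0.127 RPKM. Over the 5 of 9 receptor genes with a mean of at least 0.1 RPKM, 1 rose (*Il6ra*) and 1 fell (*Il11ra1*) in *Hmga2*+/+ MEF, while in *Hmga2*-/- MEF 0 rose and 3 fell (*Il11ra1*, *Lifr* and *Il6st*). The median log2 changes were -0.33 and -0.59. Over all genes 12.9% rose and 22.4% fell in *Hmga2*+/+ MEF, and 14.4% rose and 20.7% fell in *Hmga2*-/- MEF. Their median log2 changes were -0.08 and -0.03.

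*Socs3*, which STAT3 activates and whose product blocks gp130, was at 5.09, 4.68, 6.04 and 4.63 RPKM in *Hmga2*+/+ Ctrl, *Hmga2*+/+ TGFB1, *Hmga2*-/- Ctrl and *Hmga2*-/- TGFB1. It passed the threshold in neither genotype, with log2 changes of -0.12 (-0.27 to 0.03) and -0.38 (-0.53 to -0.24). Its level after TGFB1 was thus no higher than in Ctrl in either genotype, while *Lif* and *Il11* rose.

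The genes of the JAK-STAT pathway were mostly lower after TGFB1 by less than the threshold. Of 11 genes, 0 rose and 3 fell in *Hmga2*+/+ MEF, and 0 rose and 1 fell in *Hmga2*-/- MEF, with median log2 changes of -0.36 and -0.38. Over all genes 12.9% rose and 22.4% fell in *Hmga2*+/+ MEF, and 14.4% rose and 20.7% fell in *Hmga2*-/- MEF. The medians over all genes were -0.08 and -0.03. *Stat5a*, a transcription factor used by many cytokines, fell from 3.24 to 1.63 RPKM in *Hmga2*+/+ MEF and from 2.91 to 1.46 RPKM in *Hmga2*-/- MEF. Its relative *Stat5b* and the adaptor *Gab1* fell in *Hmga2*+/+ MEF (log2 changes -0.69 and -0.70) and were at -0.47 and -0.54 in *Hmga2*-/- MEF. The kinase *Tyk2* was at -0.50 and -0.37. *Stat3* was at 27.3, 22.3, 26.9 and 20.6 RPKM in *Hmga2*+/+ Ctrl, *Hmga2*+/+ TGFB1, *Hmga2*-/- Ctrl and *Hmga2*-/- TGFB1, and *Jak1* at 45.5, 36.6, 56.6 and 39.9 RPKM.

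Among 15 inhibitors of this pathway, 2 rose and 4 fell in *Hmga2*+/+ MEF, and 0 rose and 2 fell in *Hmga2*-/- MEF, with median log2 changes of -0.12 and 0.08. In *Hmga2*+/+ MEF these shares are close to those over all genes, of which 12.9% rose and 22.4% fell. In *Hmga2*-/- MEF 14.4% of all genes rose and 20.7% fell. *Socs1*, a JAK inhibitor, had log2 changes of -0.97 in *Hmga2*+/+ MEF and -0.50 in *Hmga2*-/- MEF, and *Socs5* of 0.69 and 0.48. *Pias3* and *Pias1*, SUMO ligases that restrain STAT factors, had -0.76 and -0.54 in *Hmga2*+/+ MEF and -0.36 and -0.47 in *Hmga2*-/- MEF.

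Of 20 genes listed as targets of STAT3, 18 had a mean of at least 0.1 RPKM. In *Hmga2*+/+ MEF 9 rose and 1 fell, and in *Hmga2*-/- MEF 8 rose and 3 fell, with medians of 0.56 and 0.47. Over all genes 12.9% rose and 22.4% fell in *Hmga2*+/+ MEF, and 14.4% rose and 20.7% fell in *Hmga2*-/- MEF. Many of these genes are also targets of other factors. *Timp1*, an inhibitor of metalloproteinases, was at 19.5 and 152.9 RPKM in *Hmga2*+/+ Ctrl and TGFB1 and at 18.4 and 155.4 RPKM in *Hmga2*-/- Ctrl and TGFB1. The transcription factor *Myc* (log2 changes 1.90 in *Hmga2*+/+ and 1.83 in *Hmga2*-/- MEF), the angiogenic factor *Vegfa* (1.60 and 2.11) and the AP-1 subunit *Junb* (1.18 and 1.62) also rose in both genotypes. *Ccnd1*, which encodes cyclin D1, fell in both, from 10.6 to 6.89 RPKM in *Hmga2*+/+ MEF and from 13.2 to 5.72 RPKM in *Hmga2*-/- MEF. *Socs3* and *Fos* (4.46 and 4.56 RPKM in *Hmga2*+/+ MEF, 5.15 and 4.55 RPKM in *Hmga2*-/- MEF) were among those under the threshold in both.

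**Figure D3:**
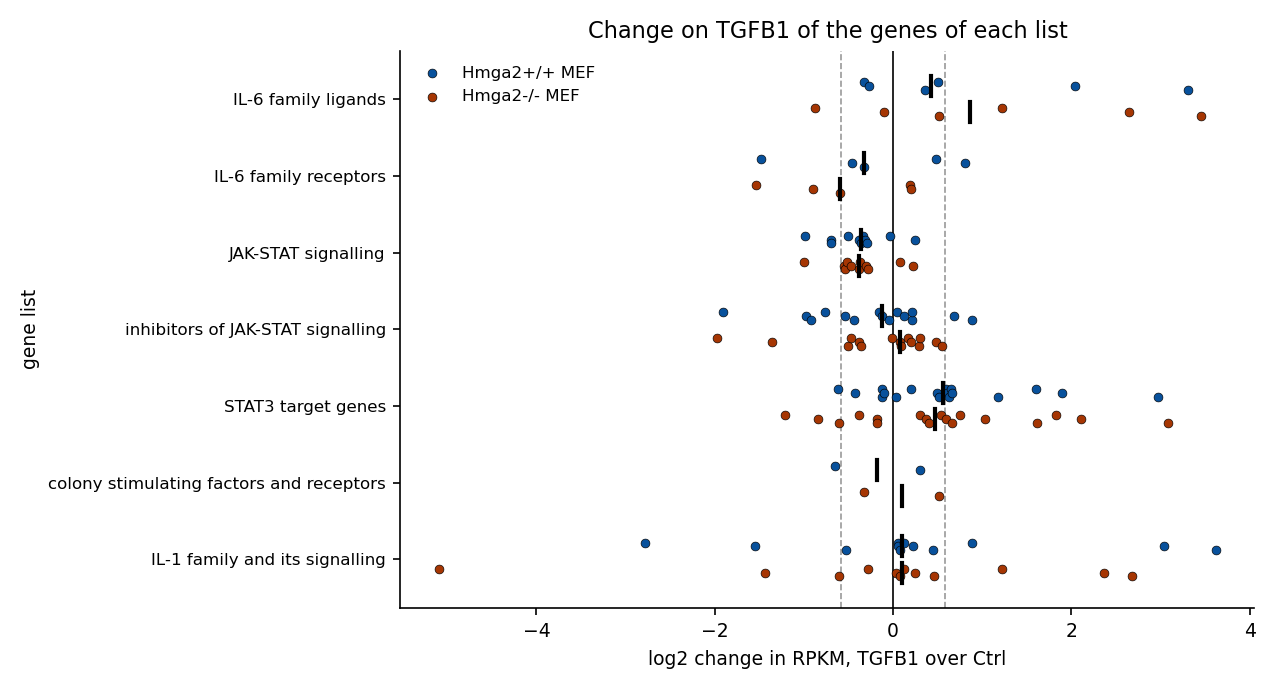
Log2 change in RPKM from Ctrl to TGFB1 of every listed gene with a mean of at least 0.1 RPKM, by list, in *Hmga2*+/+ (blue) and *Hmga2*-/- (brown) MEF. Points are genes, each from 1 library per condition. Black lines are medians and dashed lines mark 1.5-fold, and the JAK-STAT genes gather left of 0 (medians -0.36 and -0.38) while the STAT3 targets lie mostly to the right (0.56 and 0.47).

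*Csf1*, the growth factor on which macrophages depend, was at 22.1, 27.1, 25.9 and 37.1 RPKM in *Hmga2*+/+ Ctrl, *Hmga2*+/+ TGFB1, *Hmga2*-/- Ctrl and *Hmga2*-/- TGFB1. Both TGFB1 libraries lay above both Ctrl libraries, yet both log2 changes stayed under the threshold, at 0.30 (0.24 to 0.35) in *Hmga2*+/+ MEF and 0.52 (0.47 to 0.56) in *Hmga2*-/- MEF. Transcripts with the long sixth exon encode secreted CSF1 and those with the short one the membrane-bound form. The 885 bases found only in the long exon were covered at 34.2, 43.6, 43.4 and 61.4 RPKM in the same order, beside 18.8, 22.7, 21.2 and 30.5 RPKM for the transcript with the short exon. The long exon was thus used in every library. As the transcript with the short exon shares most of its bases with the others, its value is not the level of the membrane-bound form. *Csf1r*, the receptor of CSF1, stayed between 0.005 and 0.041 RPKM, and *Csf2* and *Csf3r* had 0 reads. Of 8 genes in the list of colony stimulating factors and receptors, 2 had a mean of at least 0.1 RPKM, *Csf1* and *Csf2ra*. The latter, the receptor chain for GM-CSF, fell in *Hmga2*+/+ MEF (3.11 and 1.98 RPKM, log2 change -0.65) and was at 2.41 and 1.92 RPKM in *Hmga2*-/- MEF (-0.33).

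*Il33* and its receptor differed by orders of magnitude. *Il33* was at 0.127, 0.236, 0.091 and 0.125 RPKM in *Hmga2*+/+ Ctrl, *Hmga2*+/+ TGFB1, *Hmga2*-/- Ctrl and *Hmga2*-/- TGFB1, from 18, 34, 13 and 18 reads. Its log2 change of 0.89 in *Hmga2*+/+ MEF had an interval from 0.02 to 1.80, and that of 0.46 in *Hmga2*-/- MEF one from -0.65 to 1.61. With a pseudocount of 0.1 RPKM the former was 0.57, under the threshold.

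*Il1rl1* was at 18.9 RPKM (5613 reads) in *Hmga2*+/+ Ctrl, 156.3 RPKM (47261 reads) in *Hmga2*+/+ TGFB1, 36.5 RPKM (10911 reads) in *Hmga2*-/- Ctrl and 189.3 RPKM (56911 reads) in *Hmga2*-/- TGFB1. Both TGFB1 libraries lay above both Ctrl libraries. The log2 change was 3.04 (3.0 to 3.08) in *Hmga2*+/+ MEF, where 36 of the 10788 genes rose more, and 2.37 (2.34 to 2.40) in *Hmga2*-/- MEF, where 95 did. The level of *Il1rl1* was 662.3 times that of *Il33* in *Hmga2*+/+ TGFB1 and 1515 times in *Hmga2*-/- TGFB1. These ratios are rough, since *Il33* had only 34 and 18 reads there. Its counting intervals were 0.163 to 0.329 RPKM and 0.0744 to 0.198 RPKM.

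Because mast cells and other leukocytes also carry ST2, their markers were read in the same libraries. The mast cell genes *Cpa3*, *Tpsb2* and *Fcer1a* had 0 reads in all 4, and 0 of the 5 mast cell markers reached a mean of 0.1 RPKM, the list summing to 0.003 and 0.010 RPKM in *Hmga2*+/+ Ctrl and TGFB1 and to 0.037 and 0.053 RPKM in *Hmga2*-/- Ctrl and TGFB1. The 9 leukocyte markers summed to between 1.30 and 1.68 RPKM, nearly all of it *Cd68*. The log2 change of *Cd68* on TGFB1 was -0.36 (-0.77 to 0.05) in *Hmga2*+/+ MEF and -0.28 (-0.70 to 0.14) in *Hmga2*-/- MEF. Both were under the threshold and within counting error, so the sum gave no direction.

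The short form of *Il1rl1*, which encodes secreted ST2, was at 32.0, 264.5, 60.7 and 317.7 RPKM in *Hmga2*+/+ Ctrl, *Hmga2*+/+ TGFB1, *Hmga2*-/- Ctrl and *Hmga2*-/- TGFB1, above the long form in each. Both forms share their first exons, and the ratio of long to short RPKM was 0.592, 0.591, 0.602 and 0.596 in the same order. As most exons are common to both, this ratio is not a measure of how much of each form was made. The long transcript is 2222 bases longer, and the short one has bases of its own at its end. The long transcript held 102.2%, 102.0%, 103.9% and 102.9% of the reads of the short one in the same order, a net excess of 120, 946, 411 and 1611 reads. The short transcript with the proximal first exon held 256, 1838, 538 and 2283 reads more than that with the distal first exon, so at least that many reads lay on the proximal first exon.

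**Figure D4:**
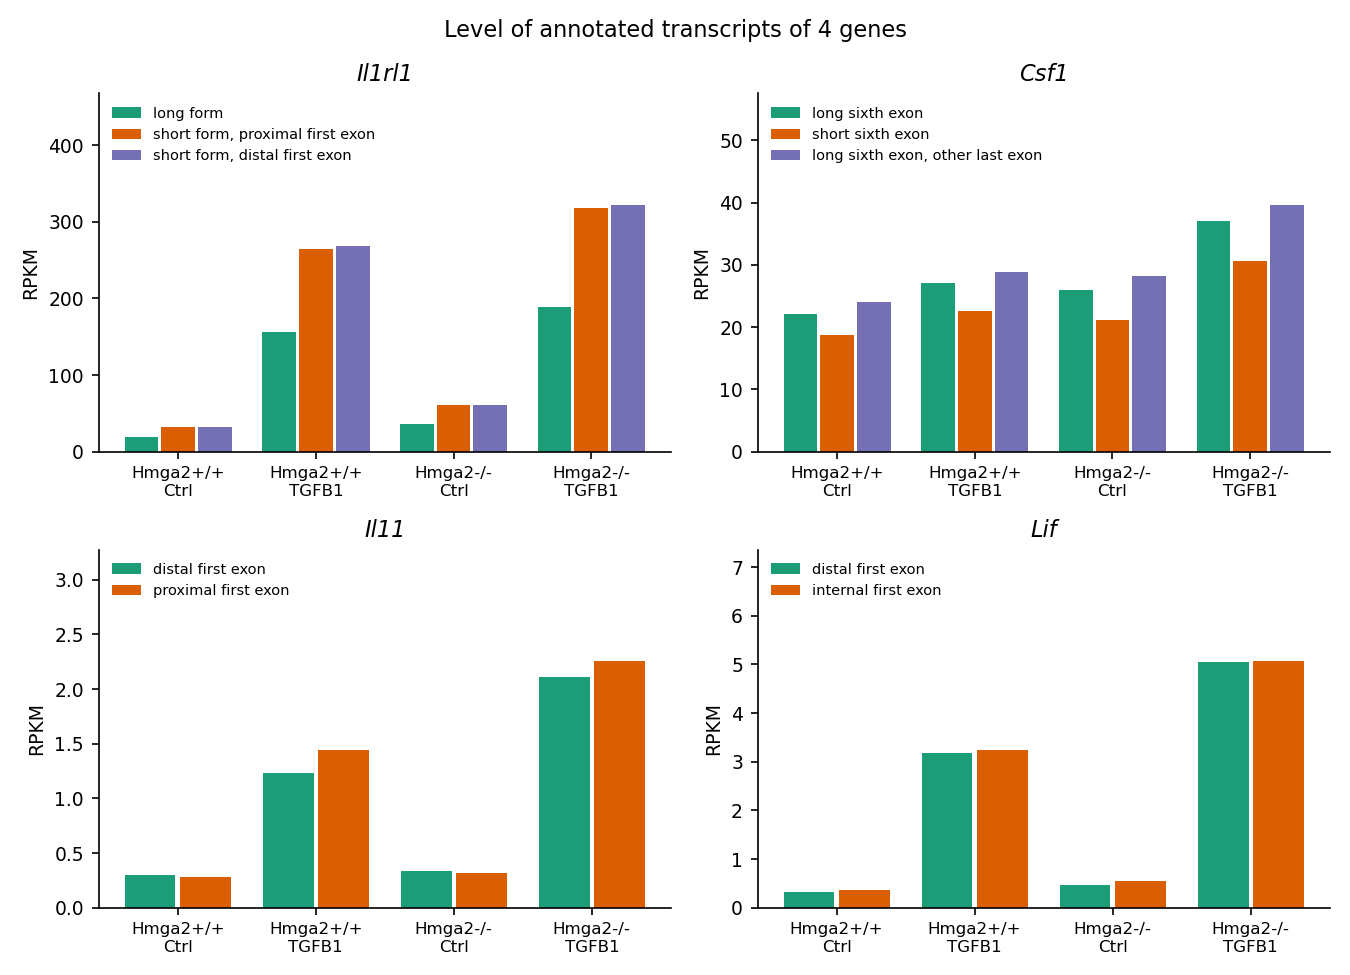
RPKM of annotated transcripts of *Il1rl1*, *Csf1*, *Il11* and *Lif* in the 4 libraries, each bar 1 transcript in 1 library. Transcripts of 1 gene share most exons and so most reads. The short forms of *Il1rl1* stood above the long form in every library, and the transcript of *Il11* with the proximal first exon stood above the distal one only in the TGFB1 libraries.

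*Il1rap*, the second chain of the ST2 receptor, was at 2.39, 2.53, 2.36 and 2.50 RPKM in *Hmga2*+/+ Ctrl, *Hmga2*+/+ TGFB1, *Hmga2*-/- Ctrl and *Hmga2*-/- TGFB1. Its log2 change was 0.08 in both genotypes. The ratio of *Il1rl1* to *Il1rap* was therefore 7.92, 61.7, 15.5 and 75.9 in the same order.

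Of the 20 listed genes of the IL-1 family and its signalling, 17 were in the table and 12 had a mean of at least 0.1 RPKM. In *Hmga2*+/+ MEF 3 rose (*Il33*, *Il1rl1*, *Il18rap*) and 2 fell (*Il1rn*, *Il18*), and in *Hmga2*-/- MEF 3 rose (*Il1rl1*, *Il18rap*, *Irak2*) and 3 fell (*Il1rn*, *Il18*, *Irak4*). The median log2 change was 0.10 in both. Over all genes 12.9% rose and 22.4% fell in *Hmga2*+/+ MEF, and 14.4% rose and 20.7% fell in *Hmga2*-/- MEF. *Il1rn*, which encodes the IL-1 receptor antagonist, fell from 9.61 to 3.28 RPKM in *Hmga2*+/+ MEF and from 6.598 to 2.45 RPKM in *Hmga2*-/- MEF. The kinase *Irak4* had log2 changes of -0.53 and -0.61, and *Irak2* of 0.45 and 1.22. *Il18rap*, an IL-18 receptor chain singled out after its values were seen, was at 0.150, 1.84, 0.189 and 1.21 RPKM in *Hmga2*+/+ Ctrl, *Hmga2*+/+ TGFB1, *Hmga2*-/- Ctrl and *Hmga2*-/- TGFB1. *Il1a* and *Il1b* had 0 reads in all 4 libraries.

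Between the genotypes, few of the 10 genes differed by the threshold. In Ctrl, 1 gene was higher in *Hmga2*-/- MEF (*Il1rl1*), against 5.43% of all genes, and 1 was lower (*Il6*), against 5.78%. After TGFB1, 2 were higher (*Il11* and *Lif*), against 6.98%, and 1 was lower (*Il33*), against 5.80%. The median log2 difference of the 10 genes was 0.19 in Ctrl and 0.13 after TGFB1, beside -0.02 and 0.03 over all genes.

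In Ctrl, *Il1rl1* was at 36.5 RPKM in *Hmga2*-/- MEF against 18.9 RPKM in *Hmga2*+/+ MEF, a log2 difference of 0.95 (0.90 to 0.99). Among the 10788 genes, 70 were higher by more. After TGFB1 the difference was 0.28 (0.26 to 0.29). *Lif* had 0.52 (0.07 to 0.97) in Ctrl and 0.67 (0.53 to 0.81) after TGFB1, and *Il11* had 0.16 (-0.58 to 0.91) and 0.77 (0.46 to 1.10). *Csf1*, at 0.23 (0.18 to 0.29) and 0.45 (0.41 to 0.50), lay above 0 beyond counting error in both conditions without reaching the threshold. *Il33* had -0.48 (-1.63 to 0.63) and -0.92 (-1.82 to -0.04), from 34 reads or fewer per library. *Il11ra1* was slightly lower in *Hmga2*-/- MEF in both conditions, at -0.12 and -0.18.

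**Figure D5:**
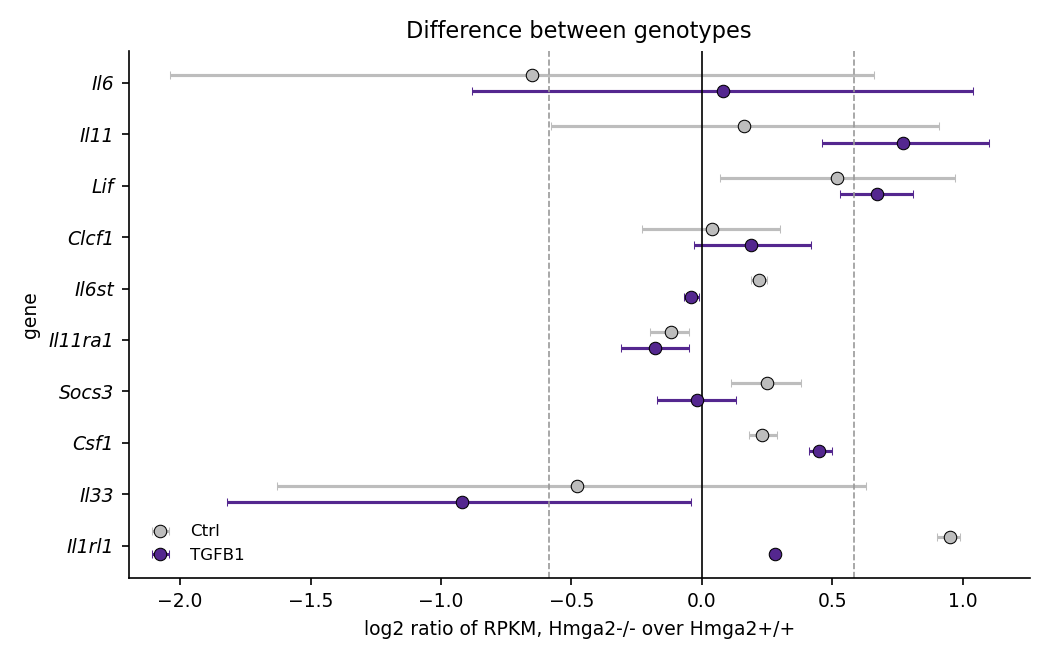
Log2 ratio of RPKM, *Hmga2*-/- over *Hmga2*+/+ MEF, for each of the 10 genes in Ctrl (grey) and after TGFB1 (purple). Lines are 95% counting intervals and dashed lines mark 1.5-fold. *Il1rl1* in Ctrl (0.95) and *Il11* and *Lif* after TGFB1 (0.77 and 0.67) lay past the right dashed line.

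Marker genes of other cell types differed between the genotypes as well. Over 5 epithelial markers, 4 with a mean of at least 0.1 RPKM, the summed level was 2.62 and 2.96 RPKM in *Hmga2*+/+ Ctrl and TGFB1 and 5.33 and 5.77 RPKM in *Hmga2*-/- Ctrl and TGFB1, most of it *Krt19*. *Epcam* had log2 differences of -0.79 in Ctrl and -1.23 after TGFB1, and *Krt18* of -1.25 and 0.33. Over the list 1 gene was higher and 2 were lower in Ctrl, with a median of -0.40, and 2 were higher and 1 was lower after TGFB1, with a median of 0.66. Of all genes 5.43% were higher and 5.78% lower in Ctrl, and 6.98% were higher and 5.80% lower after TGFB1. Over 5 endothelial markers, 2 with such a mean (*Kdr* and *Tek*), the summed level was 3.89 and 4.86 RPKM against 7.12 and 8.14 RPKM. The defining endothelial markers *Cdh5*, *Pecam1* and *Cldn5* stayed at or below 0.048 RPKM. Both sums were thus higher in *Hmga2*-/- MEF in both conditions, and their part in the differences of *Il1rl1* in Ctrl and of *Il11* and *Lif* after TGFB1 was not tested. On TGFB1, *Tek* fell from 2.75 to 0.33 RPKM in *Hmga2*+/+ MEF and from 5.65 to 0.686 RPKM in *Hmga2*-/- MEF. *Kdr* rose from 1.11 to 4.46 RPKM and from 1.46 to 7.39 RPKM. Of the epithelial list 1 rose and 1 fell in *Hmga2*+/+ MEF, against 12.9% and 22.4% of all genes. In *Hmga2*-/- MEF 3 rose and 0 fell, against 14.4% and 20.7%.

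The response to TGFB1 itself was set against genotype as the log2 change in *Hmga2*-/- MEF minus that in *Hmga2*+/+ MEF, with a 95% interval from the reads of all 4 libraries. It was -0.67 (-0.72 to -0.62) for *Il1rl1*, whose Ctrl level was already higher in *Hmga2*-/- MEF. *Il6st* had -0.26 (-0.30 to -0.22) and *Socs3* -0.26 (-0.46 to -0.06), so both log2 changes were more negative in *Hmga2*-/- MEF. *Csf1* had 0.22 (0.15 to 0.29). The intervals of *Il11* (0.61, -0.15 to 1.38), *Lif* (0.15, -0.30 to 0.61), *Clcf1* (0.16, -0.18 to 0.49), *Il11ra1* (-0.06, -0.21 to 0.09) and *Il33* (-0.44, -1.75 to 0.88) included 0. For *Il6*, with fewer than 10 reads in 1 library, no interval was computed. Its difference of 0.72 went to 0.02 when the transcript with the highest mean stood for the gene and to 0.06 with a pseudocount of 1 RPKM, so it gave no direction at this depth. None of these intervals holds the variation between cultures.

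For the 7 genes with a mean of at least 1 RPKM, the genes with the most similar profile over the 4 libraries were sought among 10787 others, as the smallest Euclidean distance between centred log2(RPKM + 0.1) values. *Lif* was nearest to *Dusp5* (distance 0.063), which encodes a phosphatase of ERK, and to *Aldh1a3* (0.095), an enzyme of retinoic acid synthesis. *Dusp5* was at 1.47, 11.96, 2.08 and 19.0 RPKM in *Hmga2*+/+ Ctrl, *Hmga2*+/+ TGFB1, *Hmga2*-/- Ctrl and *Hmga2*-/- TGFB1. *Il11ra1* was nearest to *Reck* (0.070), an inhibitor of metalloproteinases, and *Arhgef6* (0.079). One of the 2 nearest to *Il1rl1* was *Inhba* (0.280), which encodes a subunit of activin A and was at 11.9, 88.3, 18.2 and 120.5 RPKM in the same order. The others were nearest to *Fam98a* and *Arfip1* (*Clcf1*), *Zfp28* and *Camk2g* (*Il6st*), *Hist1h4h* and *Birc3* (*Socs3*), and *Rps27l* and *Irf2bpl* (*Csf1*), at distances between 0.015 and 0.046. A likeness over 4 libraries is a description of those libraries.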

How the data were processed

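RNA of the 4 MEF cultures was sequenced on a NextSeq500 (single end), with 1 library per condition. After trimming with Trimmomatic, the authors aligned the reads to mm10 by HISAT2 2.1.0 (submitters' processing notes), made HOMER tag directories and deposited RPKM values for 63759 UCSC known transcripts on the annotated strand. The table's own command line counts exons, while the study's methods name genes. The study speaks of duplicates, and whether they were pooled into 1 column is not stated. The only other column used was the transcript length given with the deposited RPKM.

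Transcripts were named where at least 50% of their span lay in a same-strand gene of GENCODE vM21 (57708 transcripts, 90.5%). Mapped reads per library were derived as the number that turns low RPKM values of short transcripts into whole reads: 100% of at least 1056 tested values per library came within 0.1 read. The depths were 56140000, 57290000, 56610000 and 56950000 reads for *Hmga2*+/+ Ctrl, *Hmga2*+/+ TGFB1, *Hmga2*-/- Ctrl and *Hmga2*-/- TGFB1. Reads without molecular identifiers are not independent molecules, so intervals and floors cover counting error only.

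An RPKM of 0 was set to 0.001, as in the study's methods, and genes were kept at a mean of at least 0.1 RPKM. Exact binomial 95% intervals and the other computations used Python 3.11.15 (scipy 1.17.1, pandas 2.3.3, numpy 2.4.6). The derivation of mapped reads, the log2 changes and their exact binomial intervals were tested on simulated data, and the other steps were not. The members and gene lists were chosen with earlier results of these data known. Beside the members, up to 4 genes per list were named by the size of their change in *Hmga2*+/+ MEF at a mean of at least 1 RPKM, with the partner receptors of the ligands and the 2 nearest profiles. A gene that these rules or lists hold is not reported here, and list counts were made without it. Transcript pairs, level ratios, and other list genes named to spell out a count were picked after their values were seen. Exon structures were matched from transcript span and length. Alternatives were pseudocounts of 0.1 and 1 RPKM, rescaled libraries, other filters, the transcript of highest mean and a 2-fold threshold.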

Additional observations from a re-analysis of the deposited data

How the results depend on the processing

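Of 160 alternative log2 changes of the 10 genes, 151 moved by less than the counting interval, 8 moved by more in the same direction and 1 reversed: *Il6* between the genotypes in Ctrl was 0.40 with the transcript of highest mean RPKM, against -0.65. Of the 8, 2 came with rescaled libraries and 6 with a pseudocount of 1 RPKM. The 6 were changes on TGFB1 in *Hmga2*+/+ and *Hmga2*-/- MEF. *Lif* went to 1.66 and 2.05 (from 3.31 and 3.46) and *Il11* to 0.78 and 1.22 (from 2.04 and 2.65). *Il1rl1* went to 2.98 and 2.34. Differences of response were recomputed with both pseudocounts and the transcript of highest mean, but not with rescaled libraries. All 27 of these for the genes other than *Il6* stayed within their intervals. Those of *Il6*, which has none, were 0.34, 0.06 and 0.02 against 0.72. With rescaled libraries the log2 changes on TGFB1 in *Hmga2*+/+ and *Hmga2*-/- MEF lay further apart for *Il6st* (-0.30 and -0.62, against -0.33 and -0.59). The same held for *Il1rl1* (3.07 and 2.35, against 3.04 and 2.37). The counts of genes past the threshold were less stable, since they rest on few genes. In Ctrl, 0 genes were lower in *Hmga2*-/- MEF with a pseudocount of 0.1 or 1 RPKM, a mean of at least 1 RPKM, the transcript of highest mean or a 2-fold threshold, and 0 were higher at 2-fold. Of all genes 4.18%, 1.33%, 1.93%, 6.04% and 2.78% were lower in these settings, and 2.35% were higher at 2-fold. After TGFB1, 0 were lower with a pseudocount of 0.1 or 1 RPKM, a mean of at least 1 RPKM or 2-fold, and 0 were higher with a pseudocount of 1 RPKM or 2-fold, against 1 at a mean of at least 1 RPKM. Of all genes 4%, 1.03%, 1.96% and 2.82% were lower in these settings. The shares higher were 1.71% with a pseudocount of 1 RPKM, 3.04% at 2-fold and 3.01% at a mean of at least 1 RPKM. On TGFB1, 1 gene fell in *Hmga2*-/- MEF with a pseudocount of 1 RPKM or 2-fold, where 8.84% and 11.4% of all genes fell. At a mean of at least 1 RPKM, a limit that leaves out *Il6*, *Il11* (mean 0.997 RPKM) and *Il33*, 2 rose in each genotype. Of all genes 11.6% rose there in *Hmga2*+/+ MEF and 13.4% in *Hmga2*-/- MEF. In *Hmga2*+/+ MEF 3 rose with a pseudocount of 0.1 or 1 RPKM or at 2-fold, where *Il33* lost its call, and 5 with the transcript of highest mean, where *Il6* passed at 0.97. The shares of all genes that rose in these settings were 12%, 7.82%, 6.23% and 13.2%. In *Hmga2*-/- MEF 3 rose with a pseudocount of 1 RPKM, where *Il6* lost its call and 9.1% of all genes rose. For the pseudocounts, the stricter filter and the 2-fold threshold, the smaller counts follow from their construction, and for the transcript of highest mean the cause was not tested. With 1 library per condition no library could be left out. No paired analysis was possible because each condition has 1 library and the labels carry no replicate numbers. Depth limits *Il6* and *Il33* most, with between 9 and 34 reads per library and the widest intervals.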
